A study of Mus musculus with 10 samples.

Results

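The genes described here encode the complement, clotting and serpin proteins of blood, with related plasma inhibitors and their relatives in other tissues. They were taken by a pattern of gene symbols from the platform annotation of 2 Affymetrix chips, A and B, among probe sets that name a single gene. The pattern found 61 probe sets of 50 genes, out of 7542 probe sets that name 1 of 6137 genes, 37 of them on chip A and 24 on chip B. Another 4 probe sets name several genes, among them a match, and were left out. RNA came from liver, pancreas, muscle, hypothalamus and white adipose tissue of adult females of the C57BL/6 strain, with no treatment, age or number of animals in the labels. Each tissue had 1 array on each chip, 10 arrays in all, so no value has an error between animals and no difference has a test. The sources used here do not say whether RNA of several animals was pooled, so the spread between animals is unknown. The title of both adipose arrays names a preconfluent state, while their source label names white adipose tissue. The name adipose-labelled sample is used for this reason. All 7 measured adipocyte markers, Adipoq and Lep among them, were highest there.

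Complement is a cascade of plasma proteases and binding proteins that tags and lyses microbes, and clotting is a second cascade that ends in thrombin cutting fibrinogen to fibrin. Serpins are inhibitors that trap a protease by a change of their own fold, and some have become hormone carriers or chaperones. Hepatocytes secrete most of these proteins into blood, while macrophages, endothelium, neurons and connective tissue cells make others for local use. The members were therefore divided from textbook knowledge, but with earlier results of these data known. The division gave 23 genes made mainly in liver, 7 made in liver and by other cells, and 19 of other tissues. Of the last 19, C1qbp encodes a mitochondrial protein that is no part of C1q, and the remaining member, C1d, encodes a nuclear RNA-binding protein and came in by its symbol alone.

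Values are intensities on a linear scale, after each array was brought to 1 trimmed mean per chip. The noise bound of an array is the size of its 1st percentile, which lies below 0. It was 295.5 in liver, 1166 in pancreas, 1065 in muscle, 258 in hypothalamus and 390.1 in the adipose-labelled sample on chip A. On chip B it was 792 in liver, 2607 in pancreas, 1639.7 in muscle, 649 in hypothalamus and 918 in the adipose-labelled sample. A probe set was called for the tissue that exceeded each of the others by a factor of 4 or more. Before that step, values below 174.8 on chip A or below 122.5 on chip B were replaced by this floor. A fold below is the value over the highest of the other values and bounds, written "at least" where a bound sets it. Brightness differs between probe sets for reasons of design, so values are compared between tissues and not between genes. In a tissue, fewer cells of a type and less RNA per cell cannot be told apart.

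Liver-made factors were called for liver far more often than other probe sets. The lists were drawn up with earlier results of these data known, so the shares are descriptions. Above noise somewhere were 24 of the 26 probe sets of liver-made factors and 5586 of all 13057. Of 26 probe sets of liver-made factors, 22 were called for liver, against 2.12% of all 13057 probe sets, and none was called for another tissue. The background of calls by this rule was 3.58% of all probe sets in pancreas, 1.85% in muscle, 1.98% in hypothalamus and 10.4% over the 5 tissues. By 1 probe set per gene, 20 of the 23 genes were called, against 2.79% of named genes. The median of the log2 difference between liver and the highest other tissue, on floored values, was 3.35 over these 26 probe sets and -0.82 over all probe sets. With every other value and noise bound as the comparison, 14 of the 26 were at least 4 times higher in liver, against 0.973% of all probe sets. Among factors made in liver and by other cells 2 of 9 probe sets were called for liver, both of Cfb. Among those of other tissues none of 25 was, which is near the background of 2.12%. The map of all members above noise shows this split between liver on one side and the adipose-labelled sample on the other.

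**Figure D1:**
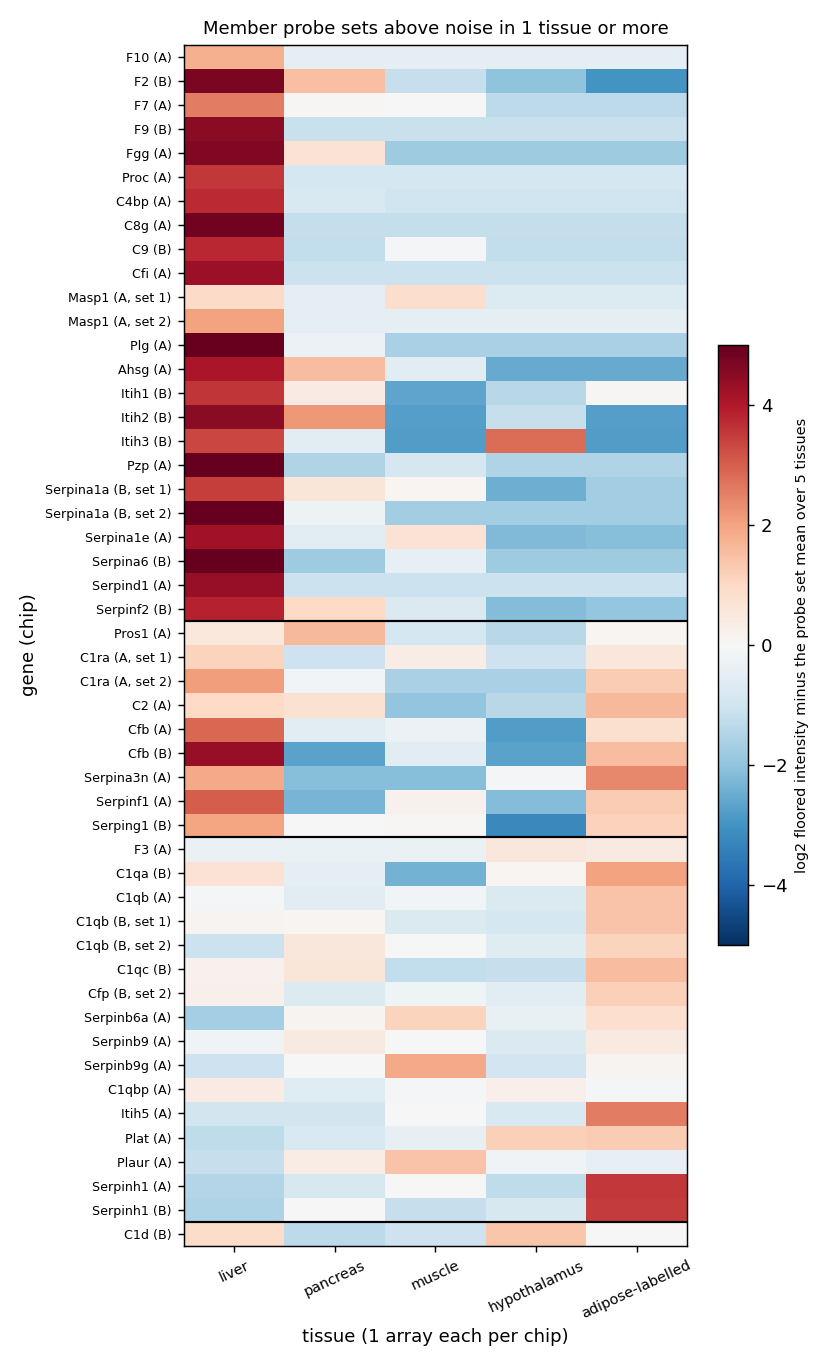
Heat map of the 50 member probe sets above the noise bound in 1 tissue or more, with tissues in columns (1 array each per chip) and colour for the log2 floored intensity minus the probe set's mean over 5 tissues. Black lines separate the liver-made factors (24 rows), those of liver and other cells (9), those of other tissues (16) and C1d (1), and the liver column is red through the first block while the adipose-labelled column is reddest for Serpinh1 and Itih5 in the third.

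**Figure D2:**
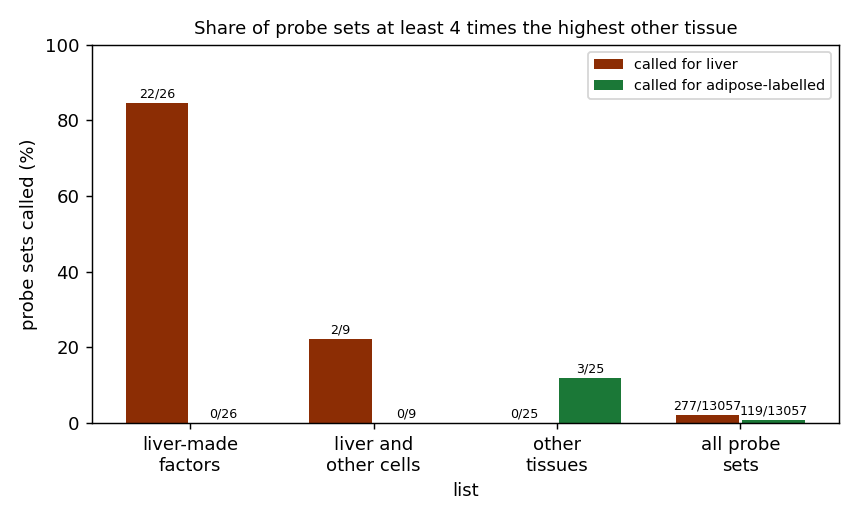
Bars give the percent of probe sets called for liver or for the adipose-labelled sample in each list, with the count over the list size above each bar. In liver 22 of 26 liver-made probe sets were called and 277 of all 13057, and for the adipose-labelled sample 3 of 25 probe sets of the other-tissue list and 119 of all 13057.

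The clotting proteases and fibrinogen were high in liver. F2, prothrombin, which thrombin is cut from, read 27495 in liver, 2982 in pancreas, 476 in muscle, 260.0 in hypothalamus and 134 in the adipose-labelled sample. It was 9.22-fold above pancreas, the other tissue where it passed the noise bound. Fgg, the gamma chain of fibrinogen, read 15088.5 in liver, 984.5 in pancreas, and below 0 in muscle, hypothalamus and the adipose-labelled sample. It was at least 12.9-fold higher in liver, with the pancreas value under its bound. F7, the protease that tissue factor switches on, read 2525 in liver, 454 in pancreas, 433 in muscle, 71.6 in hypothalamus and 111.5 in the adipose-labelled sample, at least 2.17-fold higher in liver.

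F9, the protease missing in haemophilia B, read 6185 in liver and below 0 in the other 4 tissues on chip B, at least 2.37-fold higher. Its probe set on chip A was above noise nowhere, at 234 in liver and 398 in pancreas, so F9 was measured on chip B only. F10, which makes thrombin from prothrombin, read 806 in liver, -539 in pancreas, 89.2 in muscle, 30.8 in hypothalamus and 26.1 in the adipose-labelled sample. It was called for liver and above the noise of the liver array, but its liver value lies under the noise bounds of the pancreas and muscle arrays, so no fold is given. F13b, the carrier subunit of the enzyme that cross-links fibrin, was above noise nowhere, with 237 in liver as its highest value. Proc, protein C, an anticoagulant protease, read 3693 in liver and below 0 elsewhere, at least 3.17-fold higher. In all, 6 of the 7 genes of this group were called for liver, and 2 of them, F2 and Fgg, were at least 4 times above every bound too.

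Messages of C8g, C9, Cfi and C4bp, late or regulatory proteins of complement, were also highest in liver. C8g, a chain of the membrane attack complex, read 11534.5 in liver, -240.1 in pancreas, 145 in muscle, 22.9 in hypothalamus and -81.4 in the adipose-labelled sample, at least 9.89-fold higher in liver. C9, which forms the pore of that complex, read 3839.9 in liver and at most 266 elsewhere, at least 1.47-fold higher. Cfi, the protease that cuts and silences C3b and C4b, read 7113 in liver and at most 133 elsewhere, at least 6.10-fold higher. C4bp, the cofactor that binds C4b, read 4652 in liver, 208 in pancreas, 162 in muscle, 1.0 in hypothalamus and 69.3 in the adipose-labelled sample, at least 3.99-fold higher. In each of these 4 genes no tissue but liver passed its noise bound. Masp1, a protease of the lectin pathway, was less clear. One of its probe sets read 1012 in liver and at most 167 elsewhere and was called, and the other read 541 in liver and 508 in muscle and was not, while neither exceeded the pancreas bound.

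The plasma serpins of the liver-made list were called for liver in 6 of 6 probe sets, of 5 genes, against 2.12% of all probe sets. None of the 3 plasma serpins made in liver and by other cells was called, which is near that background, and 2 of the 3 were highest in liver. Serpina6, which carries corticosteroids, read 21767 in liver, -404 in pancreas, 310 in muscle, -88.3 in hypothalamus and -125.6 in the adipose-labelled sample, at least 8.35-fold higher in liver. Serpind1, heparin cofactor II, a thrombin inhibitor, read 7628 in liver and at most 158 elsewhere, at least 6.54-fold higher. Serpinf2, the inhibitor of plasmin, read 7906 in liver, 1105 in pancreas, 334 in muscle, 61.5 in hypothalamus and 147 in the adipose-labelled sample, at least 3.03-fold higher. Plg, plasminogen itself, read 19802 in liver, 448 in pancreas, 61.1 in muscle, and below 0 in hypothalamus and the adipose-labelled sample, at least 17.0-fold higher. Plasminogen and its serpin inhibitor were thus both called for liver, with no other tissue above noise for either.

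Serpina1a and Serpina1e, copies of alpha-1-antitrypsin that blocks neutrophil elastase, were read by 3 probe sets whose values outside liver differed. The first Serpina1a probe set, of a design meant for a gene family, read 28678 in liver, 3949 in pancreas, 2787 in muscle, 481 in hypothalamus and 779.5 in the adipose-labelled sample. The second read 18542 in liver, 349.5 in pancreas, 40.2 in muscle, -23.8 in hypothalamus and 40.2 in the adipose-labelled sample. Muscle and pancreas thus passed their bounds by the first probe set and not by the second. Serpina1e, also of family design, read 15069.6 in liver, 541 in pancreas, 1334 in muscle, -60.7 in hypothalamus and 185 in the adipose-labelled sample, with muscle above its bound and liver 11.3-fold above muscle. Copies of this gene family are near identical, and family probe sets can bind messages of several, so their values are uncertain for 1 copy.

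Of 5 other plasma inhibitors 4 were called for liver. Pzp, which traps proteases like alpha-2-macroglobulin, read 19533 in liver, 9.0 in pancreas, 275 in muscle, 74.6 in hypothalamus and 113.5 in the adipose-labelled sample, at least 16.8-fold higher in liver. Ahsg, fetuin A, an inhibitor of calcification, read 17129 in liver, 2911 in pancreas, 670.4 in muscle, 110.4 in hypothalamus and 169 in the adipose-labelled sample, 5.89-fold above pancreas. Itih1 and Itih2 are heavy chains that plasma inhibitors pass on to hyaluronan in matrix. Itih1 read 24227 in liver, 2689 in pancreas, 326 in muscle, 791 in hypothalamus and 2152 in the adipose-labelled sample, 9.01-fold above pancreas. It was the one liver-made probe set above noise in the adipose-labelled sample. Itih2 read 18822 in liver, 3737 in pancreas, -628.5 in muscle, 377 in hypothalamus and -173 in the adipose-labelled sample, 5.04-fold above pancreas.

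The inhibitor not called was Itih3, another heavy chain of this family. It read 8731 in liver, 597 in pancreas, -413 in muscle, 5889.9 in hypothalamus and 39.2 in the adipose-labelled sample. Liver was 1.48-fold above hypothalamus, so the gene was not called for either, and both were at least 4 times the highest of the remaining 3 tissues, a pattern that 0.0766% of all probe sets had. Its neighbour Itih1, with no protein-coding gene between them in the mouse assembly GRCm38.p6, read 791 in hypothalamus, above the noise bound of 649. Hepatocyte markers were low in hypothalamus: none of 10 measured genes passed the noise bound there. Whether liver RNA had a part in the hypothalamus value of Itih3 was not tested.

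**Figure D3:**
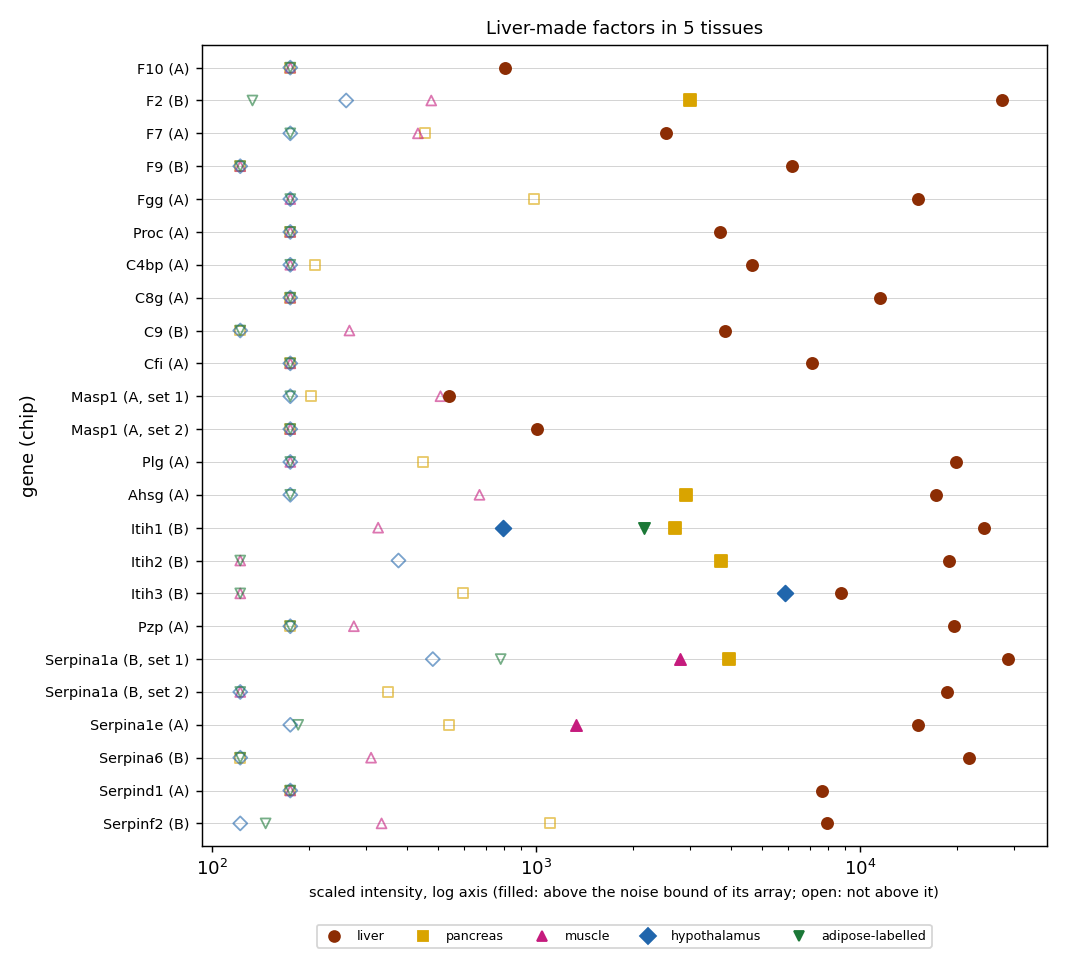
Scaled intensity (log axis) of the 24 probe sets of liver-made factors above noise in 1 tissue or more, 1 row per probe set with its chip in brackets and 1 symbol per tissue, filled where the value exceeded the bound of its array, with values under the floor drawn at the floor. Liver is the rightmost point in every row, and filled points of other tissues are seen for F2, Ahsg, Itih1, Itih2, Itih3, Serpina1a and Serpina1e.

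Pancreas was the tissue where liver-made factors were next most often above noise. Of the 24 probe sets above noise in liver, 5 passed the pancreas bound, 2 the muscle bound, 2 the hypothalamus bound and 1 that of the adipose-labelled sample, although the pancreas bounds were the highest of the 5 tissues. In these 5 probe sets, of F2, Ahsg, Itih1, Itih2 and Serpina1a, the pancreas value was between 10.8% and 19.9% of the liver value. For 4 others the pancreas bound held the share under 10%, down to at most 5.89% for Plg, at most 5.97% for Pzp, at most 7.73% for Fgg and at most 7.74% for Serpina1e. These 4 are on chip A, as is Ahsg, at 17.0%, while the other measured shares are of chip B, where the pancreas bound was higher. F2 at 2982 and Itih1 at 2689 lie close to that bound of 2607. The shares come from single arrays, so whether they differ between factors was not tested. They also depend on the scaling. The log2 difference between liver and the highest other tissue, as reported, was 3.20 for F2 and 2.33 for Itih2. It was 4.05 and 3.18 with 75th percentile scaling, and 3.74 and 2.30 with quantile normalization. A larger difference means a smaller share. Among the hepatocyte markers, 2 passed the pancreas bound: Ttr read 4146 in liver and 1995 in pancreas, which is 48.1% of it, and Alb read 18132 in liver and 26253 in pancreas, which is 145% of it. Alb also passed the muscle bound, at 8227. The summed level of the 6 hepatocyte markers on chip B was 112452.5 in liver and 29274.5 in pancreas, and that of the 4 on chip A was 43588 in liver and 1995 in pancreas. Alb alone gave 26253 of the chip B pancreas sum, and Ttr gave all of the chip A one. The remaining markers were under the pancreas bound, and 1 of them, Apoa1, was above noise nowhere. Whether liver RNA had a part in the pancreas values was not tested.

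Promoters of the members were searched for sequence motifs, since HNF1 and C/EBP are known regulators of liver genes. RefSeq windows were matched for 39 of the 50 genes, and the 250 bases before the annotated start were searched on both strands for 9 motifs. A member gene counted if any of its windows matched, while the background is the share of single windows. GTTAAT, the core of the HNF1 site, was found in 6 of 18 liver-made genes (33.3%), 1 of 4 of liver and other cells and 1 of 16 of other tissues (6.25%), against 6.43% of all 32851 windows. A longer HNF1 site of 10 letters, which contains that core, was in 2 of the 18, against 0.371% of all windows. The C/EBP motif TTGCNNAA was in 5 of the 18 (27.8%), none of the 4 and 3 of the 16 (18.8%), against 9.56% of all windows. A different pattern with wider spacing, TTNCNNNAA, was in 7 of the 18 (38.9%), 3 of the 4 and 6 of the 16, against 32.9% of all windows, so the share in liver-made genes was near the background. TATAAA, the TATA box, was in none of the 18 and 12.4% of all windows, and the STAT motif TTCNNNGAA in 1 of the 18 and 7.02% of all. The full HNF1 palindrome, the HNF4 motif CAAAGTCCA and an NF-kB motif were in none of the members' windows, and in 0.00913%, 0.384% and 0.14% of all windows. The motifs were picked after matches in these windows had been looked at, so the counts are examples and not evidence. A match is a run of letters and not a site shown to be bound.

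The next 7 windows were chosen for their matches: 6 are of liver-made genes with GTTAAT or TTGCNNAA, and that of Serpinh1, a gene called for the adipose-labelled sample, has neither. Capitals mark GTTAAT in the first 4, on either strand, and TTGCNNAA on either strand in Ahsg and Itih2. Serpina1e also holds TTGCNNAA, which is not in capitals. All are 250 bases, 5′ to 3′ on the strand of the gene and ending at the base before the start, from RefSeq on GRCm38.p6. Those of Pzp (chr6:128526721-128526970), C4bp (chr1:130661619-130661868), Serpina1a (chr12:103863620-103863869), Serpina1e (chr12:103956898-103957147), Itih2 (chr2:10130684-10130933) and Serpinh1 (chr7:99353240-99353489) are on the minus strand and that of Ahsg (chr16:22891765-22892014) is on the plus strand.
Pzp: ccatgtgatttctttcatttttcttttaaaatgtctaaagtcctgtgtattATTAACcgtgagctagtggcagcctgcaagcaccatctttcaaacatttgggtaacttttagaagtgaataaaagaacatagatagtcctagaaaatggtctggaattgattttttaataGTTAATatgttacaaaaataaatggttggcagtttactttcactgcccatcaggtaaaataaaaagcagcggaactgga
C4bp: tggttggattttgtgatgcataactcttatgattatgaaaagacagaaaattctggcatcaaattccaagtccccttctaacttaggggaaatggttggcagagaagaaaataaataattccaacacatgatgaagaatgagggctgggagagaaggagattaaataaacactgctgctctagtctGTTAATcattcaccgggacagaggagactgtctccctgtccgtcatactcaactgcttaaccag
Serpina1a: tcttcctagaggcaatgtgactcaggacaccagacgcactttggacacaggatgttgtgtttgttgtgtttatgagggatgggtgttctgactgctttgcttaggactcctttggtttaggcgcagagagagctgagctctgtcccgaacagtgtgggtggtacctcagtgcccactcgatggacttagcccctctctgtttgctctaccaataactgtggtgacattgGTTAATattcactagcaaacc
Serpina1e: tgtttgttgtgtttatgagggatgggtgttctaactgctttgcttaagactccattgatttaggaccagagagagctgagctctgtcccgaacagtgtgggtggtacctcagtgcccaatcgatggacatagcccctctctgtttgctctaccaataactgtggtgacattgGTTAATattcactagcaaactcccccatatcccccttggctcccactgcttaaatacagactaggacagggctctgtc
Ahsg: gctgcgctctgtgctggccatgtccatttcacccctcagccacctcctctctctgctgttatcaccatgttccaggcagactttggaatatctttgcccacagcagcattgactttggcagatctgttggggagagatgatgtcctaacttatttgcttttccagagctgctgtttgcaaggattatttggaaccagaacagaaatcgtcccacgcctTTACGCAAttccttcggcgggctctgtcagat
Itih2: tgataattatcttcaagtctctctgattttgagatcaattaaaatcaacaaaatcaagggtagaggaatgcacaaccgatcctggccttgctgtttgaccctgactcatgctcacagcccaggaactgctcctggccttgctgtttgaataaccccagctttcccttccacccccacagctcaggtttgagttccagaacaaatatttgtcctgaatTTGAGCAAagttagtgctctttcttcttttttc
Serpinh1: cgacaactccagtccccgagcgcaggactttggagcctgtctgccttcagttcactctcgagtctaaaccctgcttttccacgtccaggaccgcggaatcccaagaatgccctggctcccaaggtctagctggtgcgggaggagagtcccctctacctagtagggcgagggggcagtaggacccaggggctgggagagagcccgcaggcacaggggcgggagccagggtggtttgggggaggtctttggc

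Pzp held the HNF1 core at 199 and at 79 bases before the start, and C4bp held it at 64 bases. In Serpina1a it began 21 bases and in Serpina1e 78 bases before the annotated start. Moved by 57 bases, the 300-base windows of these 2 copies were identical at 233 of 243 bases (95.9%), and the motif lies in the shared stretch. The C/EBP motif began 32 bases before the start in Ahsg and 33 in Itih2. Whether any of these matches bears on the liver values was not tested.

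Factors known from liver and from other cells were measured in both liver and the adipose-labelled sample. All 9 probe sets of these 7 genes were above noise in both. Cfb, the protease of the alternative pathway, read 16046 in liver, 11 in pancreas, 522 in muscle, 102 in hypothalamus and 2242 in the adipose-labelled sample on chip B. On chip A it read 8863 in liver, 851.5 in pancreas, 986 in muscle, 155 in hypothalamus and 2102 in the adipose-labelled sample, where liver was 4.22-fold above the adipose-labelled sample. Both chips, with probe sets of family design, thus put liver first and the adipose-labelled sample second. C2, the matching protease of the classical pathway and the direct neighbour of Cfb in the assembly, had the other order. It read 2365 in the adipose-labelled sample, 1563 in liver, 1302 in pancreas, 197 in muscle and 295 in hypothalamus, 1.51-fold above liver. C1ra, the protease of the C1 complex, read 2240.2 in liver, 480.3 in pancreas, 84.2 in muscle, 3.0 in hypothalamus and 1296 in the adipose-labelled sample, 1.73-fold above the last. Its other probe set had the same tissue highest, at 773 in liver and 535.5 in the adipose-labelled sample.

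Among the serpins of this group, Serping1, the inhibitor of the C1 proteases and of kallikrein, read 14234 in liver, 3682 in pancreas, 3746 in muscle, 392 in hypothalamus and 8112 in the adipose-labelled sample. It was above noise in 4 tissues and 1.75-fold above the adipose-labelled sample in liver. Serpinf1, PEDF, which restrains vessel growth, read 7259 in liver, 46.0 in pancreas, 1017 in muscle, 199.9 in hypothalamus and 2131 in the adipose-labelled sample, 3.41-fold above it. Its direct neighbour Serpinf2 read 147 in the adipose-labelled sample, under the noise bound. Serpina3n, which acute inflammation raises, read 4001 in the adipose-labelled sample, 2838 in liver, 118 in pancreas, -253.5 in muscle and 732 in hypothalamus, and was above noise in the first 2 and in hypothalamus. Pros1, protein S, the cofactor of protein C, read 3655 in pancreas, 1700.1 in liver, 632 in muscle, 447.5 in hypothalamus and 1263 in the adipose-labelled sample, and was 2.15-fold above liver in pancreas. It was the member with its highest value above noise in pancreas, while its partner Proc read -88.0 there. With 1 array per tissue, none of the differences under 4-fold in this group can be set against a spread.

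Members of other tissues were most often highest in the adipose-labelled sample. Of the 13 genes above noise somewhere, 8 had their highest value there, against 14.2% of named genes above noise somewhere. Of 25 probe sets, 3 were called for it, against 0.911% of all probe sets, and none for the other 4 tissues. By gene, 2 of 19 were called for any tissue, both for the adipose-labelled sample, against 11.3% of named genes for any tissue and 1.25% for this one. At 4 times every other value and noise bound 1 probe set was left, against 0.245% of all probe sets. Serpinh1, a chaperone that folds collagen in the endoplasmic reticulum and inhibits no protease, read 5621.5 in the adipose-labelled sample, 114 in liver, 276 in pancreas, 484 in muscle and 204 in hypothalamus on chip A. On chip B it read 7337 in the adipose-labelled sample, 219.5 in liver, 642 in pancreas, 288 in muscle and 368 in hypothalamus. It was at least 4.82-fold and at least 2.81-fold higher there, by probe sets of family design, and no other tissue passed its bound. Of the fibroblast markers, 5 of the 6 measured were above noise in the adipose-labelled sample, with a sum on chip B of 59227 there, 36526 in muscle, 18891.5 in pancreas, 5419 in liver and 1087.5 in hypothalamus. On chip A, with 2 of the genes, the sum was 1972 in the adipose-labelled sample, 135 in liver, 555 in pancreas, 121 in muscle and 189 in hypothalamus. On chip B muscle held the second highest sum, while Serpinh1 read under the muscle bound on both chips, and the part of connective tissue cells in its level was not tested. Itih5, a heavy chain found mostly outside liver, read 1958 in the adipose-labelled sample, -35.9 in liver, 86.0 in pancreas, 340 in muscle and 196 in hypothalamus, at least 1.68-fold higher. Its direct neighbour Itih2 was called for liver and read -173 in the adipose-labelled sample, so adjacent genes of 1 family were called for different tissues.

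The C1q chains, which start the classical pathway and are made by macrophages rather than hepatocytes, all had their highest value in the adipose-labelled sample. C1qa read 4474 in the adipose-labelled sample, 1830.1 in liver, 797 in pancreas, 217 in muscle and 1204 in hypothalamus. C1qc read 4498 in the adipose-labelled sample, 1775 in liver, 2374 in pancreas, 665 in muscle and 704.5 in hypothalamus. All 3 probe sets of C1qb were highest in the adipose-labelled sample, at 4782, 3565 and 2506. None of the 5 was called, and the chip A probe set of C1qb was the one with a measured fold, 2.81 over liver. The 3 genes lie side by side in the assembly. They were above noise in hypothalamus in all 5 probe sets, between 704.5 and 1204, and in liver in 4 of 5. Cfp, properdin, which stabilises the alternative convertase and is made by leukocytes, read 1666 in the adipose-labelled sample and 859 in liver by 1 probe set and was above noise nowhere by the other.

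Macrophage markers had their highest sums in the same sample, and 4 of the 7 genes above noise somewhere were highest there. Of the others, Fcgr3 read 1588 in pancreas against 578 in the adipose-labelled sample, and Cd14 2197 in muscle against 1708. Cd68 read 566 in pancreas, under the bound there, against 557. All 8 listed were measured, and 7 were above noise in the adipose-labelled sample, the exception being Adgre1 at 405. Their sum on chip B was 5616 in the adipose-labelled sample, 1414 in liver, 805 in pancreas, 2197 in muscle and 1090.5 in hypothalamus. On chip A it was 12790 in the adipose-labelled sample, 4071 in liver, 9853 in pancreas, 3225 in muscle and 3089.5 in hypothalamus. Most of the chip A sums was Lyz2, at 10219 in the adipose-labelled sample and 7270 in pancreas, so their order rests on that gene. The part of macrophages in the C1q values was not tested.

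**Figure D4:**
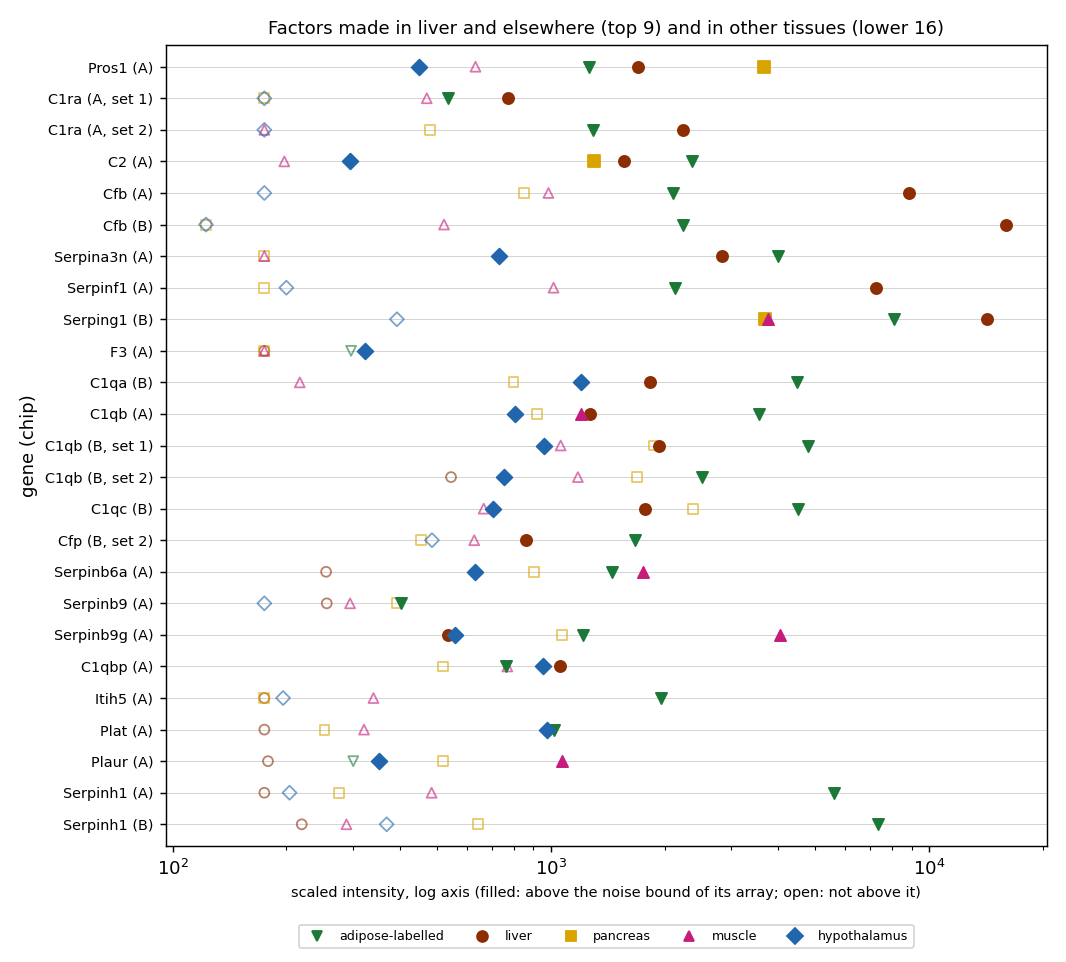
Scaled intensity (log axis) of the 25 probe sets above noise in 1 tissue or more among factors of liver and other cells (9 rows at the top) and of other tissues (16 rows below), drawn as in the plot of liver-made factors. The adipose-labelled sample is rightmost for Serpinh1, Itih5, the C1q chains, Cfp, C2, Serpina3n, Serpinb9 and Plat, muscle for Serpinb9g, Serpinb6a and Plaur, pancreas for Pros1, hypothalamus for F3, and liver for Cfb, C1ra, Serpinf1, Serping1 and C1qbp.

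Genes that start clotting or dissolve clots in tissues were at or near the noise bounds in most tissues. F3, tissue factor, which is made by astrocytes and vessel walls, read 322 in hypothalamus, 30.9 in liver, -66.0 in pancreas, -25.1 in muscle and 296 in the adipose-labelled sample, and passed the noise bound in hypothalamus alone. Plat, the tissue plasminogen activator of endothelium and neurons, read 1019.8 in the adipose-labelled sample, 980.4 in hypothalamus, -46.9 in liver, 252 in pancreas and 321 in muscle, above noise in the first 2. The first value exceeded the second by less than the noise bound of either array. Plaur, the receptor of urokinase, read 1068 in muscle, just above its bound of 1065, and 351 in hypothalamus, above the bound of 258, by 1 probe set, while the other was above noise nowhere. F8, the clotting cofactor made by endothelium, and Plau, urokinase, were above noise nowhere.

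Of the 3 serpins of the intracellular kind above noise, 2 were highest in muscle. Serpinb9g, a relative of the granzyme B inhibitor, read 4043 in muscle, 535 in liver, 1069 in pancreas, 558 in hypothalamus and 1218 in the adipose-labelled sample, 3.32-fold above the last. Serpinb6a, an inhibitor of cathepsin G, read 1753 in muscle, 255 in liver, 903.5 in pancreas, 629 in hypothalamus and 1451 in the adipose-labelled sample, 1.21-fold above the last. Serpinb9, the granzyme B inhibitor, read 402 in the adipose-labelled sample, just above its bound of 390.1, by 1 of 2 probe sets. Serpinb2, Serpinb5, Serpinb6c and Serpina5 were above noise nowhere. C1qbp read 1060.2 in liver, 519 in pancreas, 768 in muscle, 954 in hypothalamus and 761 in the adipose-labelled sample, and C1d passed its bound in hypothalamus, at 789.8.

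Other genes of these pathways, from a list of 61 genes outside the symbol pattern of which 28 were measured, were set beside the members. Of the 28, 8 were called for liver and none for another tissue, against 2.79% of named genes for liver. Hc, complement component C5, read 3701 in liver and at most 79.0 elsewhere, at least 3.17-fold higher. Mbl2, a lectin that starts the lectin pathway, read 4276 in liver and at most 619 elsewhere, at least 3.67-fold higher. By 1 of 2 probe sets Hrg, which binds heparin and plasminogen, was at least 14.4-fold higher in liver, and the other was above noise nowhere. Ambp, whose product supplies the light chain joined to the Itih heavy chains, was at least 14.3-fold higher on chip A and at least 11.4-fold on chip B. Vtn, vitronectin, was 9.91-fold above pancreas, and Vkorc1, which recycles the vitamin K that clotting factors need, 4.03-fold above pancreas. The other 2 called were Crp, a pentraxin, at least 6.31-fold higher, and Apoh, which binds phospholipid, at least 8.83-fold higher.

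None of the 7 measured complement receptors and regulators was called for a tissue, against 11.3% of named genes, and 4 of the 7 were above noise nowhere, so the count of 0 is near the background. Cd59a, a shield against the membrane attack complex, read between 1199.6 and 2013 in all 5 tissues and was above noise in each. Clu, clusterin, a chaperone that also blocks that complex, read 35224 in pancreas, 15606 in liver, 1451 in muscle, 12136 in hypothalamus and 2246 in the adipose-labelled sample. Thbd, thrombomodulin, which turns thrombin toward protein C on endothelium, read 9449.7 in pancreas, 987 in liver, 3545 in muscle, 1093 in hypothalamus and 2454 in the adipose-labelled sample, 2.67-fold above muscle. Gas6, the vitamin K dependent relative of Pros1, read 11918 in pancreas, 1619 in liver, 9271 in muscle, 3598 in hypothalamus and 8455 in the adipose-labelled sample. Its pancreas value was 1.29-fold above muscle. Pros1, Thbd and Gas6 thus all had their highest value in pancreas, and they are named together after their values were seen. The highest tissue under other scalings was checked for members only, so not for Thbd or Gas6.

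Of 10 member genes with more than 1 probe set, 6 had several above noise, and in all 6 these named the same highest tissue. They were C1qb, C1ra, Cfb, Masp1, Serpina1a and Serpinh1, of which C1qb, Cfb and Serpinh1 were read on both chips and so by 2 hybridisations. In the 4 others, F9, Cfp, Plaur and Serpinb9, a single probe set was above noise.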

How the data were processed

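Total RNA was taken with Trizol, and biotin-labelled cRNA from 10 µg of it was hybridised, per the labels' protocols. The authors deposited intensities on a linear scale, as whole numbers, of which 17.1% to 38.8% per array are below 0. The 2% trimmed means of the deposited arrays lie between 499.8 and 500.0. The software behind the values is not given in the sources used here.

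Controls (61 probe sets per chip) were left out, arrays were scaled to the mean trimmed mean of their chip, and low values were set to the median of the 5 array medians, with Python 3.11.15, pandas 2.3.3 and numpy 2.4.6. The call rule was tested on simulated data. Changes were put only in probe sets well above the floor, and the added noise was smaller than that of these arrays. The simulation therefore does not cover low values. Symbols came from the platform annotation, updated by gene identifier through a table of GRCm38.p6, and promoter windows from RefSeq. A gene with several probe sets was counted by the one of highest rank of mean log2 value in its chip.

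Every member above noise in 1 tissue or more is named, as are called genes of the pathway list. Clu, Cd59a, Thbd, Gas6, Alb, Ttr, Apoa1, Lyz2, Fcgr3, Cd68 and Cd14 were named after their values were seen. The members and lists were chosen with earlier results of these data known. The noise comparisons, neighbour pairs, pancreas percentages, motifs and printed promoters were chosen after the data were seen. With 1 array per group, no test was made, and the low number of arrays limits precision. Alternatives were other scalings, floors and folds, other probe set designs, the median of a gene's probe sets, and leaving out a tissue.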

Additional observations from a re-analysis of the deposited data

How the results depend on the processing

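No paired analysis was possible because each tissue had 1 array per chip and no result comes from a test. All 50 member probe sets above noise kept their highest tissue under 75th percentile scaling, quantile normalization and the values as deposited. As deposited, the trimmed means were already almost equal, so that run could hardly differ. Scaling by the 75th percentile shifted liver against the mean of the other 4 tissues by 0.36 log2 units on chip A and 0.46 on chip B. It shifted pancreas in the same measure by -0.21 on chip A and -0.6 on chip B.

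The count of member probe sets called for liver, 24, was 13 with a call at 10 times and 3 without probe sets of relaxed design, which leaves few members, since 39 of the 61 are of one such design. The count of liver-made genes called for liver, 20, was 13 with the noise bound of each array as its floor, 12 at 10 times and 3 without relaxed designs. The count of genes of the other-tissue list called for any tissue, 2, was 1 with a floor at the 75th percentile, 0 with the noise bound as floor, 6 with a call at 2 times, 1 at 10 times, 0 without relaxed designs, 0 without the adipose-labelled arrays and 1 without family probe sets, an alternative chosen after the data were seen. The other runs, among them those without the pancreas or the muscle arrays, stayed within 1.5 times. Log2 differences between liver and the highest other tissue were taken for single liver-made genes under 6 alternatives, 119 in all. Of these, 94 stayed within 1 of the reported value. The 94 include the values of all 23 genes as deposited, which could hardly move because the deposited trimmed means were already almost equal. They also include Ahsg, F10, F9 and Masp1 without relaxed designs, where the values were of the probe sets already used. Another 24 of the 119 moved by more, 13 of them with the noise bound and 9 with the 75th percentile as floor. The remaining 1, F10 with the noise bound as floor, also moved by more than 1 and was counted apart. Of the 119, 4 were at or below 0. With the noise bound as floor F10 was -0.53 against 2.20 as reported, and F13b -1.98 against 0.44. Masp1 was -0.20 against 0.09, but these values are of different probe sets. The 0.09 is of the one that read 541 in liver and the -0.20 of the one that read 1012. With the 75th percentile as floor F13b was 0.00. For F10, F13b and both probe sets of Masp1 the pancreas bound exceeds the liver value. The 13 and 9 changes with a raised floor came from runs that differed from the reported one in the floor alone. For Plg and Pzp, which also moved with quantile normalization, the cause of that change was not tested. The high bounds of the pancreas and muscle arrays limit what can be said of low members there.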
